A study of Mus musculus with 16 samples.

Results

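The expression of 10 genes of serine, glycine and one-carbon synthesis was followed in flexor tendons of uninjured and injured C57 and MRL mice. The genes were Phgdh, Psat1, Psph, Shmt1, Shmt2, Mthfd1, Mthfd2, Mthfd1l, Asns and Pycr1, found by symbol among the 49568 gene symbols of the deposited count table. Psat1 was chosen for its rise in injured MRL tendon in these same libraries, so its values in any comparison with the injured MRL group, or against the other strain, are given as a description with no test. The other 9 were taken as the enzymes around it and as neighbours in amino acid synthesis.

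Serine is made from a glycolytic intermediate by an oxidation (Phgdh), a transamination with glutamate (Psat1) and a dephosphorylation (Psph). Serine hydroxymethyltransferases (Shmt1 in the cytosol, Shmt2 in mitochondria) then split serine into glycine and a one-carbon unit carried on folate, and the Mthfd enzymes interconvert the folate-bound units that are used for purines and thymidylate. Asns makes asparagine from aspartate, and Pycr1 carries out the last step of proline synthesis in mitochondria. Glycine and proline are abundant in collagen, the main protein of tendon. Many of these genes are known targets of the transcription factor ATF4, which acts in the response to amino acid shortage, and several have also been described as Myc targets.

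RNA-seq counts were available for 16 libraries in 4 groups of 4. These were uninjured C57BL/6J (C57) tendon, C57 tendon 7 days post injury (dpi), uninjured MRL/MpJ (MRL) tendon and MRL tendon at 7 dpi. All mice were young adult males bred in-house. Under anesthesia the deep digital flexor tendon of the middle hind digit was cut across part of its width, and the skin was incised to reach it and sutured. The methods give 4 animals a group and RNA from single tendons, with peritendinous and sheath tissue left on. The labels identify the injured C57 libraries as BI-181, BI-183, BI-184 or BI-185, and the MRL libraries at 7 dpi as BI-270, then BI-272, BI-274 or BI-275. Uninjured libraries go by replicate number. MRL/MpJ is an inbred strain known for its healing, and it differs from C57BL/6J at many loci. The tissue was bulk tendon, in which fewer cells of a type and less RNA per cell cannot be told apart.

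Total counts ranged from 12552424 to 23741648 per library, and 3 counts, taken as the floor, were worth 0.126 to 0.241 CPM (counts scaled to the TMM-adjusted library total). The injured MRL libraries were the deepest, with a median total of 23460742.5 against 14560249.5 in injured C57. Summed CPM of 12 tendon markers (Tnmd, Scx, Col1a1 and others) lay between 37485 and 122466 in all libraries. Epidermis markers summed to 82209 CPM, or 8.22% of the library, in the one labelled C57 uninjured replicate 4, and to at most 927 CPM elsewhere. Skeletal muscle markers summed to 64178 CPM (6.42%) in C57 injured BI-181, to 1878 CPM in C57 injured BI-183 and to at most 19.98 CPM elsewhere.

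The strain labels of the uninjured libraries numbered 4 went against their counts. Both were left out of the choice of strain genes, which had at least 20 counts in all remaining libraries of one strain and at most 1 count in all those of the opposite strain, a rule set after the values were seen. The library labelled C57 uninjured replicate 4 had at least 20 counts for 0 of 8 C57 genes (Rab6b and Trim12a among them) and for 9 of 9 MRL genes (such as Acaa1b). In the library labelled MRL uninjured replicate 4 these were 8 of 8 C57 genes and 0 of 9 MRL genes. Each of the other 14 libraries, checked with genes chosen without it as well, had 8 or more genes of its labelled strain at that level and 0 of the other. The library labelled MRL uninjured replicate 4 had Spearman correlations of 0.951 to 0.964 with C57 uninjured replicates 1 to 3, and of 0.932 to 0.941 with MRL uninjured replicates 1 to 3. For the library labelled C57 uninjured replicate 4 these were 0.799 to 0.834 and 0.809 to 0.832. No library was moved to another group. How the labels came to differ was not tested, and the injury and strain differences named for the 10 genes are given with and without these libraries where they rest on them.

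Promoter windows from RefSeq (GRCm38.p6, 300 bases each, most of them before the start site) were available for all 10 genes and were searched on both strands for TGATGNAA, the core of the C/EBP-ATF response element through which ATF4 acts, and for CACGTG, the E-box bound by Myc and other factors. TGATGNAA was present in 2 of the 10 genes, Asns and Pycr1, and in 1304 of 32851 windows in all (3.97%). CACGTG was in 0 of the 10 and in 7.15% of all windows, and the sets of letters do not overlap. The windows of Asns (chr6:7693160-7693459, minus strand) and Pycr1 (chr11:120643699-120643998, minus strand) are shown because they are the ones with a match, which is in capitals, and 1 of the 2 windows of Psat1 (chr19:15925010-15925309, minus strand) because Psat1 is the gene the set was built around.
Asns: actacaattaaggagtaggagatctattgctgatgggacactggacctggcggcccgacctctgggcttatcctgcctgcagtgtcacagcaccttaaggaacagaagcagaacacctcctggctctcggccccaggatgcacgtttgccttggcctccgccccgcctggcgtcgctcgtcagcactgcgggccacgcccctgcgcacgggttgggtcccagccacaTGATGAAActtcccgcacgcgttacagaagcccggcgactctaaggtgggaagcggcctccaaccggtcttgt
Pycr1: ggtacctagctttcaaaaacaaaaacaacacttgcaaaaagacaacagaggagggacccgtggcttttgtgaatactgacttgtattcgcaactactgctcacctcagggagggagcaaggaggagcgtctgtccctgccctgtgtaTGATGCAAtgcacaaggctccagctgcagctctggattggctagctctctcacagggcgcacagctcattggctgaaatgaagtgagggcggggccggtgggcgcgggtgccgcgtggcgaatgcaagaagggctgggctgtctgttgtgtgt
Psat1: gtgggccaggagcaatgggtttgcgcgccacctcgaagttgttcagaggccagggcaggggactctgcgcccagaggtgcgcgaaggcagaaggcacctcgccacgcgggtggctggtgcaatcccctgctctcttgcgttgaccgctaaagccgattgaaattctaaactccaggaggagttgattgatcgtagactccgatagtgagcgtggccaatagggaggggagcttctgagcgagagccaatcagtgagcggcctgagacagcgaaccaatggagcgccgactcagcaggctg
The match TGATGAAA in Asns began at position -23 from the start site and TGATGCAA in Pycr1 at -103. A match is a description of letters and not of binding, and no protein was measured on these windows here.

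A gene was called changed where edgeR's adjusted p was under 0.05 and the fitted change over 2-fold, a log2 fold change of 1, and errors of fitted changes are standard errors. Positions are those of GRCm38.

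Psat1 (chr19:15904678-15947337) encodes the transaminase of serine synthesis. In uninjured C57 tendon it stood at 4.90, 3.89 and 4.09 CPM in replicates 1 to 3 and at 196 CPM in the library labelled replicate 4. In C57 at 7 dpi it stood at 20.8, 21.6, 34.0 and 7.45 CPM, in the order BI-181, BI-183, then BI-184, BI-185. In uninjured MRL tendon it stood at 5.70, 3.10 and 6.15 CPM in replicates 1 to 3, and the library labelled replicate 4 had 0 counts, which allows up to 3 counts. In MRL at 7 dpi it stood at 56.9, 50.7, 35.1 and 64.9 CPM, in the order BI-270, BI-272, then BI-274, BI-275. All injured MRL libraries lay above all injured C57 libraries, and all injured libraries lay above the 6 uninjured ones numbered 1 to 3. In MRL the fitted log2 fold change was 3.79 ± 0.76 (SE) with all 8 libraries and 3.39 ± 0.32 without the library labelled MRL uninjured replicate 4, values that describe the gene's choice. In C57, which the choice did not use, the log2 fold change was -1.39 ± 1.34 (edgeR adjusted p = 0.674) with all 8 libraries and 2.26 ± 0.48 (edgeR adjusted p = 0.0273, a 4.78-fold rise) without the library labelled C57 uninjured replicate 4.

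Phgdh (chr3:98313170-98339990), the dehydrogenase that opens the pathway, passed the test in C57 but not in MRL tendon once the libraries labelled replicate 4 were left out, a difference between strains that did not itself pass edgeR's interaction test (adjusted p = 0.543 without them). It stood at 3.49, 6.22 and 1.39 CPM in C57 uninjured replicates 1 to 3, at 253 CPM in the library labelled replicate 4, and at 14.9, 21.1, 15.8 and 13.3 CPM in the injured C57 libraries in the order above. In MRL it stood at 13.9, 10.9 and 5.61 CPM in uninjured replicates 1 to 3, at 2.33 CPM in the library labelled replicate 4, and at 32.5, 17.1, 12.1 and 16.7 CPM after injury. The C57 groups did not overlap once the library of 253 CPM was left out, whereas the MRL groups overlapped. The C57 log2 fold change was -2.10 ± 1.47 (edgeR adjusted p = 0.543) with all libraries and 2.10 ± 0.49 (edgeR adjusted p = 0.0374) without that library. In MRL it was 1.27 ± 0.51 (edgeR adjusted p = 0.138), and 0.97 ± 0.43 (edgeR adjusted p = 0.197) without the library labelled MRL uninjured replicate 4. A processed copy, Phgdh-ps1, was counted separately and reached at most 5.30 CPM, and reads that both copies could have produced are a limit on Phgdh values near that level.

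Psph (chr5:129765558-129787449), the phosphatase of the last step, passed the test in MRL tendon with all libraries. It stood at 20.2, 22.8, 14.2 and 17.0 CPM in uninjured MRL tendon, the last in the library labelled replicate 4, and at 33.2, 35.9, 30.0 and 65.4 CPM at 7 dpi. Every injured MRL library lay above every uninjured one. The log2 fold change of 1.16 ± 0.28 passed the test (edgeR adjusted p = 0.0280), but the call was kept in 3 of 8 fits with 1 library left out. It was lost without BI-272 or uninjured replicate 1, 3 or 4, with adjusted p up to 0.0780 (edgeR). It was also lost without BI-275, where the log2 fold change of 0.84 ± 0.21 (edgeR adjusted p = 0.0386) was below the 2-fold limit. Without the library labelled MRL uninjured replicate 4 the log2 fold change was 1.12 ± 0.32 (edgeR adjusted p = 0.0637). In C57 the gene ranged from 17.3 to 53.9 CPM before and from 12.99 to 34.9 CPM after injury (log2 fold change -0.45 ± 0.41, edgeR adjusted p = 0.652, and -0.03 ± 0.33, edgeR adjusted p = 0.971, without the library labelled C57 uninjured replicate 4). Psph shares 452 exon bases with Cct6a on the opposite strand, a gene of up to 384 CPM, and whether counting used strand is not given in the sources used here.

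**Figure D1:**
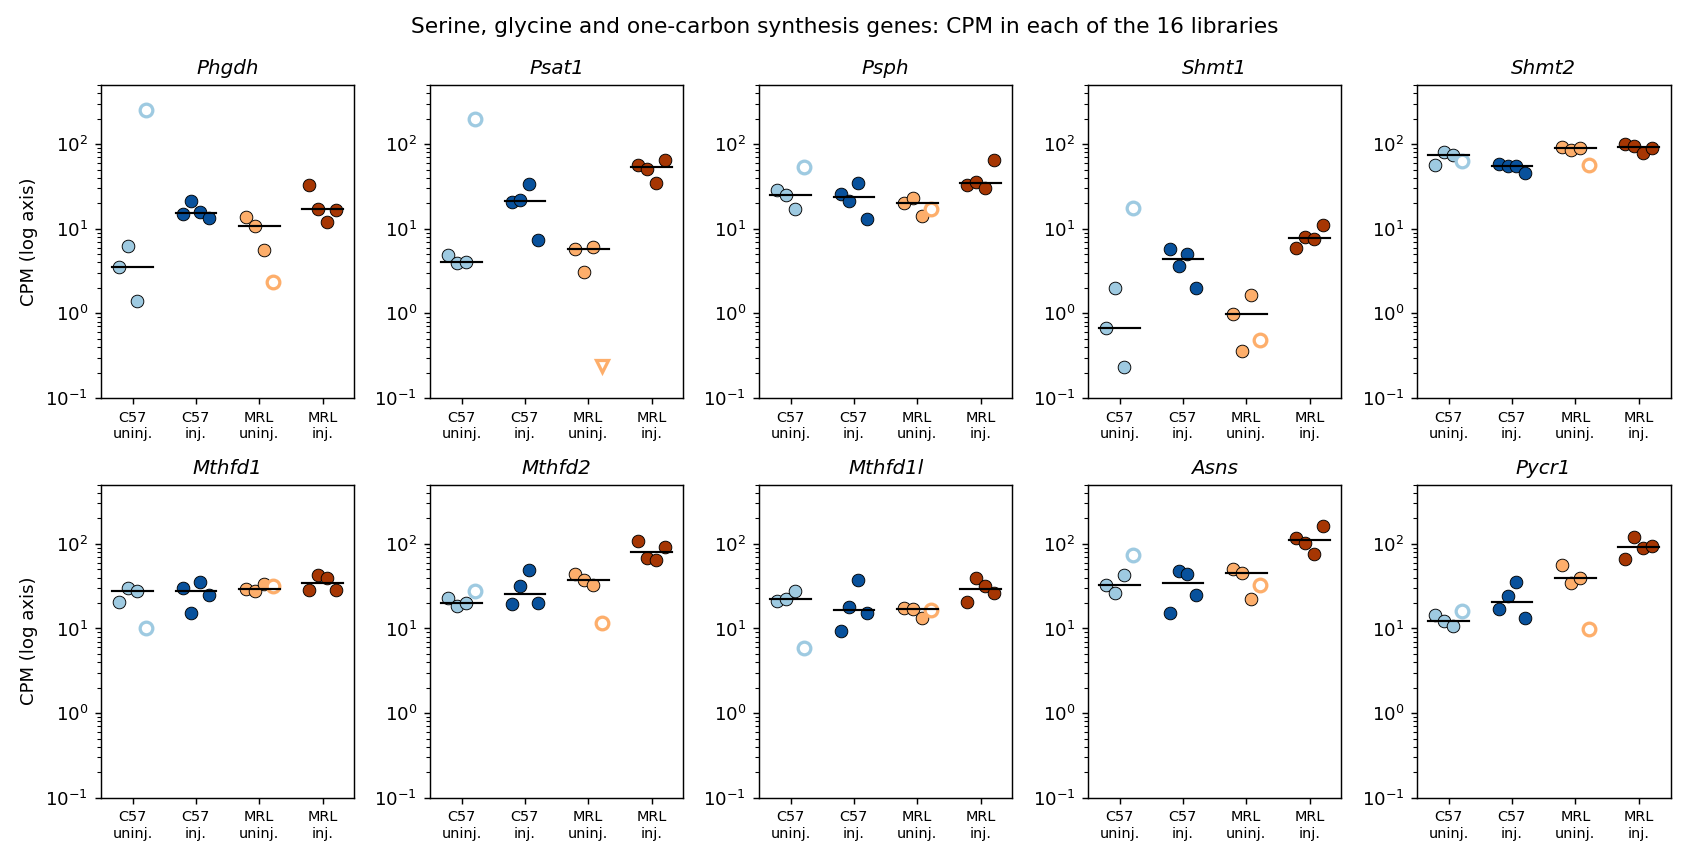
CPM (log axis) of each of the 10 genes in the 16 libraries, with 1 point per library and a line at the median of each group without the uninjured libraries labelled replicate 4. Those 2 libraries are open symbols, and the open triangle marks a count of 0, drawn at the floor of 3 counts. For Psat1 the injured MRL points lie between 35.1 and 64.9 CPM, above all injured C57 points, and the open C57 point lies at 196 CPM.

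The library labelled C57 uninjured replicate 4, set apart by its epidermis markers, had the highest values of Phgdh, Psat1 and Shmt1 in its group. Its 8.22% of counts in these markers stood beside 253 CPM of Phgdh, 196 CPM of Psat1 and 17.7 CPM of Shmt1. C57 uninjured replicate 3, next in these markers at 927 CPM, had the lowest Phgdh (1.39 CPM) and Shmt1 (0.231 CPM) of the group, and 4.09 CPM of Psat1. The part of the markers in these values was not tested. Of the other 7 genes in the library labelled C57 uninjured replicate 4, Shmt2 at 62.4 CPM lay within the range of the other 3 uninjured C57 libraries. Psph (53.9 CPM), Asns (72.9), Mthfd2 (27.8) and Pycr1 (16.3) lay above all 3, and Mthfd1 (10.02) and Mthfd1l (5.87) below all 3.

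Shmt1 (chr11:60788104-60811718), the cytosolic hydroxymethyltransferase, was the lowest of the 10 genes per length in all groups. It stood at 0.994, 0.361 and 1.67 CPM in MRL uninjured replicates 1 to 3, at 0.482 CPM in the library labelled replicate 4, and at 5.97, 8.07, 7.54 and 10.97 CPM at 7 dpi. The MRL groups did not overlap, although the uninjured values rest on only 5 to 28 counts per library. The log2 fold change was 3.20 ± 0.59 (edgeR adjusted p = 0.00840) and it was called in 8 of 8 fits with 1 library left out, with 3.02 ± 0.60 (edgeR adjusted p = 0.0213) without the library labelled MRL uninjured replicate 4. In C57 the gene stood at 0.672, 2.01 and 0.231 CPM in uninjured replicates 1 to 3, at 17.7 CPM in the library labelled replicate 4, and at 5.70, 3.64, 5.06 and 1.99 CPM after injury. There the groups overlapped, with a log2 fold change of -0.40 ± 1.14 (edgeR adjusted p = 0.914), or 2.04 ± 0.79 (edgeR adjusted p = 0.181) without that library. Shmt1 shares 184 exon bases with Smcr8 on the opposite strand, a gene of at most 11.3 CPM.

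Shmt2 (chr10:127517123-127522444), the mitochondrial hydroxymethyltransferase, did not follow Shmt1. It was among the highest of the 10 genes per length and had close values within groups, between 45.6 and 57.5 CPM in injured C57 and between 78.5 and 101 CPM in injured MRL tendon. Its log2 fold change with injury was 0.18 ± 0.18 in MRL (edgeR adjusted p = 0.543) and -0.40 ± 0.18 in C57 (edgeR adjusted p = 0.324). Without the uninjured library labelled replicate 4 of each strain these were 0.05 ± 0.14 (edgeR adjusted p = 0.854) and -0.43 ± 0.18 (edgeR adjusted p = 0.205). It shares 32 exon bases with Ndufa4l2 on the opposite strand.

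Of the folate enzymes, Mthfd2 (chr6:83305691-83325908), the mitochondrial dehydrogenase and cyclohydrolase known for its expression in dividing and embryonic cells, rose in MRL tendon. It stood at 44.5, 37.1 and 32.7 CPM in uninjured replicates 1 to 3, at 11.6 CPM in the library labelled replicate 4, and at 109, 67.9, 64.0 and 92.4 CPM at 7 dpi. The groups did not overlap with or without that library, and the log2 fold change was 1.41 ± 0.36 (edgeR adjusted p = 0.0308) with it and 1.15 ± 0.23 (edgeR adjusted p = 0.0212) without it. The call was kept in 3 of 8 fits with 1 library left out, where edgeR's adjusted p ran from 0.0212 to 0.0789, and it was lost without BI-270, BI-272, BI-275 or uninjured replicate 2 or 3. In C57 Mthfd2 stood between 18.3 and 27.8 CPM before injury and at 19.3, 31.4, 48.7 and 20.2 CPM after it, and these groups overlapped (log2 fold change 0.36 ± 0.32, edgeR adjusted p = 0.639, and 0.50 ± 0.32, edgeR adjusted p = 0.422, without the library labelled C57 uninjured replicate 4).

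Mthfd1l (chr10:3973118-4167081), the mitochondrial formate-producing synthetase, stood between 13.1 and 17.6 CPM in uninjured MRL tendon and at 20.5, 39.8, 32.0 and 26.6 CPM at 7 dpi. The groups did not overlap, but its log2 fold change of 0.89 ± 0.24 (edgeR adjusted p = 0.0395) was below the 2-fold limit of a call, and it was 0.92 ± 0.27 (edgeR adjusted p = 0.0720) without the library labelled MRL uninjured replicate 4. Mthfd1 (chr12:76255298-76319803), the cytosolic trifunctional enzyme, ranged from 28.0 to 42.9 CPM over all MRL libraries (log2 fold change 0.19 ± 0.19, edgeR adjusted p = 0.550, and 0.23 ± 0.22, edgeR adjusted p = 0.552, without that library). In C57 neither passed the test, with log2 fold changes of 0.02 ± 0.52 for Mthfd1l and 0.24 ± 0.38 for Mthfd1, or -0.28 ± 0.40 and -0.00055 ± 0.30 without the library labelled C57 uninjured replicate 4.

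Asns (chr6:7675169-7693254), asparagine synthetase, rose in MRL tendon. It stood at 50.0, 45.1, 22.3 and 32.5 CPM before injury, the last in the library labelled replicate 4, and at 118, 103, 75.9 and 163 CPM at 7 dpi. Every injured MRL library lay above every uninjured one, the log2 fold change was 1.63 ± 0.29 (edgeR adjusted p = 0.00783, 3.09-fold), and it was called in 8 of 8 fits with 1 library left out, with 1.57 ± 0.33 (edgeR adjusted p = 0.0260) without the library labelled MRL uninjured replicate 4. In C57 it stood at 32.2, 25.9, 42.5 and 72.9 CPM before and at 15.2, 48.3, 43.4 and 25.1 CPM after injury. Those groups overlapped (log2 fold change -0.46 ± 0.43, edgeR adjusted p = 0.657, and -0.07 ± 0.37, edgeR adjusted p = 0.940, without the library labelled C57 uninjured replicate 4).

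Pycr1 (chr11:120635712-120643769), the proline synthesis reductase, separated the uninjured libraries in another way. In C57 uninjured tendon it stood at 14.4, 12.1, 10.7 and 16.3 CPM, the last in the library labelled replicate 4. In MRL uninjured tendon it stood at 56.1, 34.6 and 39.4 CPM in replicates 1 to 3 and at 9.88 CPM in the library labelled replicate 4. At 7 dpi it stood at 17.2, 24.0, 35.6 and 13.1 CPM in C57 and at 65.3, 121, 88.7 and 93.7 CPM in MRL. The uninjured MRL replicates 1 to 3 thus lay above all uninjured C57 libraries, and the library labelled MRL uninjured replicate 4 below them all. With injury in MRL the log2 fold change was 1.40 ± 0.41 (edgeR adjusted p = 0.0539) with all libraries and 1.10 ± 0.25 (edgeR adjusted p = 0.0309, called) without the library labelled replicate 4. In C57 it was 0.70 ± 0.34 (edgeR adjusted p = 0.366), and 0.82 ± 0.34 (edgeR adjusted p = 0.213) without the library labelled C57 uninjured replicate 4.

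Counted over the set, 4 of the 9 genes other than Psat1 rose with injury in MRL tendon (Asns, Shmt1, Psph and Mthfd2) and 0 fell, where 5.25% of the 14274 genes tested were called higher. Without the library labelled MRL uninjured replicate 4 it was again 4 of 9, with Pycr1 in and Psph out, where 4.68% of all genes were called higher. The count fell to 2 of 9 without BI-272, BI-275 or MRL uninjured replicate 3, where Asns and Shmt1 stayed called. In 1 fit of all 16 libraries Psph (edgeR adjusted p = 0.0714) and Shmt1 (0.0701) were not called and Pycr1 (0.0482) was. The injured libraries lay above all uninjured ones for 6 of the 9 genes (Psph, Shmt1, Mthfd2, Mthfd1l, Asns and Pycr1) with all libraries (13.5% of all genes tested) and for the same 6 without the library labelled MRL uninjured replicate 4 (15.7% of all genes tested). In C57 edgeR called 0 of 10 with all libraries, where 0.908% of 14424 genes were called higher and 0.166% lower. There 1 of the 10, Shmt2, had an unadjusted p under 0.05, and DESeq2 also called 0 of 10, giving no p for Phgdh and Psat1. Without the library labelled C57 uninjured replicate 4, Psat1 and Phgdh were called (3.5% of all genes were called higher), and they were also the 2 genes of 10 whose C57 groups did not overlap, against 11.6% of all genes tested.

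**Figure D2:**
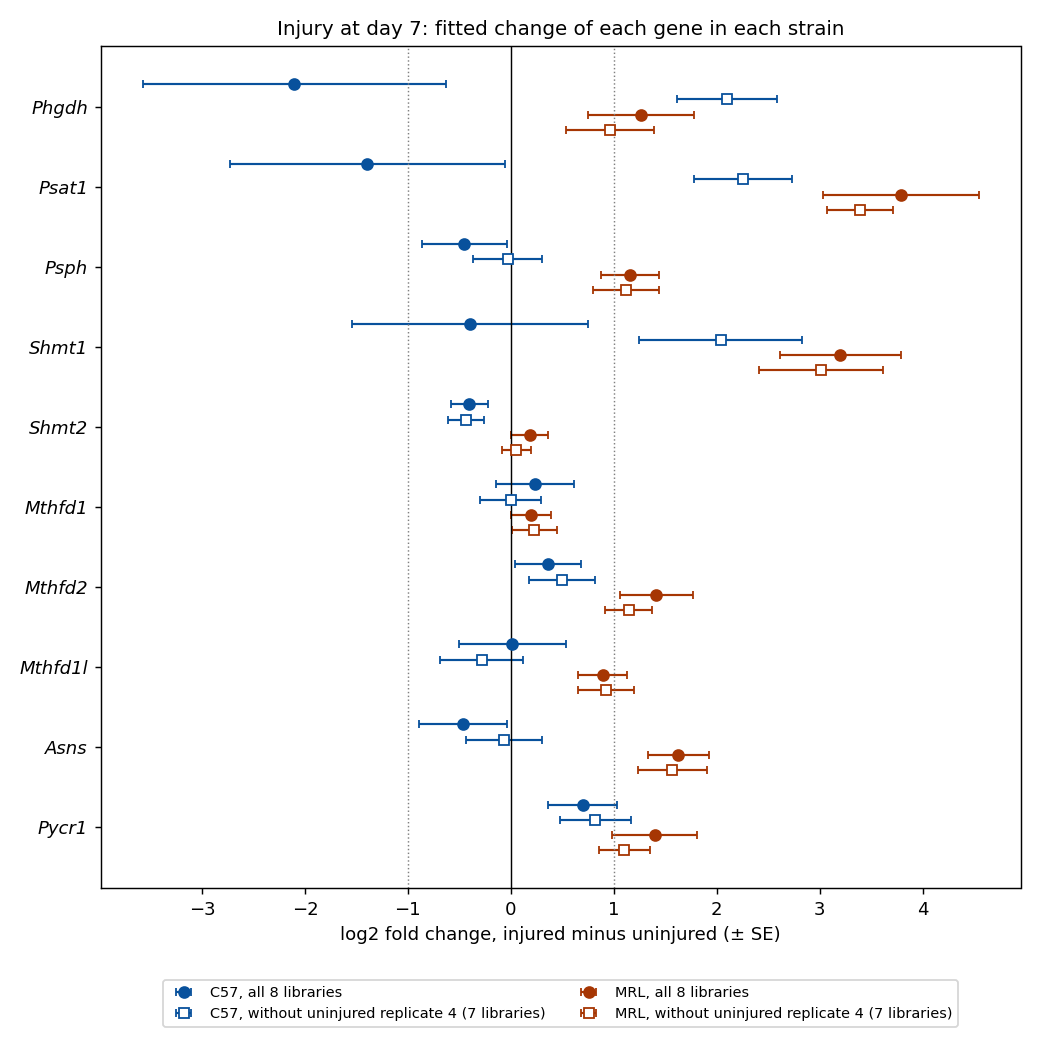
Fitted log2 fold change (injured minus uninjured, horizontal axis) of the 10 genes in C57 and MRL tendon, with bars of 1 SE, for all 8 libraries of a strain (filled) and without its uninjured library labelled replicate 4 (open). Dotted lines mark a 2-fold change. Phgdh in C57 moves from -2.10 to 2.10 when that library is left out, while Asns in MRL stays at 1.63 and 1.57.

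Whether injury changed these genes by unequal amounts in MRL and C57 was tested with an interaction term over 16 libraries. edgeR called 0 of the 9 genes and 0% of 15947 genes in all, where 1939 genes had an unadjusted p under 0.05 and DESeq2 called 134 genes. Of the 9, Psph, Shmt1, Shmt2 and Asns had an unadjusted p under 0.05 and DESeq2 called Asns. The Asns interaction was 2.03 ± 0.55 on the log2 scale (edgeR adjusted p = 0.333), with the larger change in MRL, and 1.58 ± 0.53 (edgeR adjusted p = 0.328) without both libraries labelled replicate 4. Without them edgeR called 0 of the 9 and 0% of 16391 genes, while 3 of the 9 (Psph, Mthfd1l and Asns) and 1735 genes in all had an unadjusted p under 0.05. The Phgdh interaction turned from 3.31 ± 1.70 to -1.19 ± 0.65 without them, and that of Psat1, given with no test, went from 5.12 to 1.08. No strain difference in the injury response of the 9 genes thus passed edgeR's test.

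The injured libraries of the strains do not involve the libraries labelled replicate 4. There edgeR called 3 of the 9 genes higher in MRL than in C57 (Pycr1, Asns and Mthfd2), with 1.55% of 14626 genes called higher. Pycr1 was higher by 2.00 ± 0.31 on the log2 scale (edgeR adjusted p = 0.00822, 4.01-fold) and was called in 8 of 8 fits with 1 library left out. Asns was higher by 1.78 ± 0.36 (edgeR adjusted p = 0.0256) and was called in 5 of 8 such fits, and Mthfd2 by 1.45 ± 0.31 (edgeR adjusted p = 0.0311), called in 2 of 8. Only 1 of the 9 genes, Pycr1, was called without C57 BI-185, MRL BI-272 or MRL BI-275. Shmt2 was 0.74 ± 0.16 higher (edgeR adjusted p = 0.0321), below the 2-fold limit. All 4 MRL libraries lay above all 4 C57 libraries for 5 of the 9 genes (Shmt1, Shmt2, Mthfd2, Asns and Pycr1), as they did for 8.27% of all genes tested. Psat1 was 1.27 ± 0.39 higher in MRL on the log2 scale, with no test since it was chosen on that group. Phgdh, the enzyme just before it, differed by 0.24 ± 0.32 (edgeR adjusted p = 0.726). Without C57 injured BI-181, the library with 6.42% of counts in muscle markers, Pycr1 (1.91 ± 0.34, edgeR adjusted p = 0.0240) and Asns (1.54 ± 0.30, edgeR adjusted p = 0.0347) were called and Mthfd2 (1.30 ± 0.31, edgeR adjusted p = 0.0667) was not. Between the injured groups, summed tendon markers were 37485 to 71576 CPM in C57 and 73788 to 122466 in MRL, and endothelium markers 116 to 259 and 4.62 to 33.0 CPM. Of 12 proliferation genes, 12 were fitted higher in MRL (median log2 difference 1.14) and 0 were called. Of 6 Schwann cell markers tested, 0 were fitted higher (median -3.71) and 2 were called lower. The part of these differences in the results was not tested.

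Before injury, edgeR called 0 of the 9 genes and 0% of 14055 genes between the strains with all libraries. Of the 9, only Pycr1 had an unadjusted p under 0.05, 1106 genes in all did so, and DESeq2 called 0 of the 9 and 64 genes in all. The log2 differences with all libraries, MRL minus C57, were 1.35 ± 0.45 for Pycr1 (edgeR adjusted p = 0.621), 0.45 ± 0.38 for Mthfd2 (edgeR adjusted p = 0.769), 0.21 ± 0.20 for Shmt2 (edgeR adjusted p = 0.808) and -0.27 ± 0.40 for Mthfd1l (edgeR adjusted p = 0.878), and that of Psat1, given with no test, was -3.88 ± 1.74. They were -3.10 ± 1.65 for Phgdh (edgeR adjusted p = 0.676), -2.62 ± 1.28 for Shmt1 (edgeR adjusted p = 0.646), -0.80 ± 0.36 for Psph (edgeR adjusted p = 0.631), -0.26 ± 0.38 for Asns (edgeR adjusted p = 0.877) and 0.46 ± 0.31 for Mthfd1 (edgeR adjusted p = 0.720). Without both libraries labelled replicate 4, Pycr1 was called, with 2.07% of all genes called higher in MRL. It was then 1.79 ± 0.24 higher in MRL on the log2 scale (edgeR adjusted p = 0.00223, n = 3 in each strain). Mthfd2 was 0.88 ± 0.20 higher (edgeR adjusted p = 0.0342), below the 2-fold limit. The log2 difference was 0.32 ± 0.15 for Shmt2 (edgeR adjusted p = 0.299) and -0.59 ± 0.24 for Mthfd1l (edgeR adjusted p = 0.218). Psat1 differed by 0.20 ± 0.47 in that comparison, given with no test. The others were at 1.44 ± 0.57 for Phgdh (edgeR adjusted p = 0.2105), 0.047 ± 1.05 for Shmt1 (edgeR adjusted p = 0.991), -0.33 ± 0.27 for Psph (edgeR adjusted p = 0.599), 0.21 ± 0.30 for Asns (edgeR adjusted p = 0.795) and 0.20 ± 0.21 for Mthfd1 (edgeR adjusted p = 0.686), so that Phgdh, Shmt1 and Asns changed sign without these libraries and none of the 5 passed the test in either fit. Pycr1 was thus the gene of the set called between strains both before injury, with those libraries left out, and at 7 dpi.

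**Figure D3:**
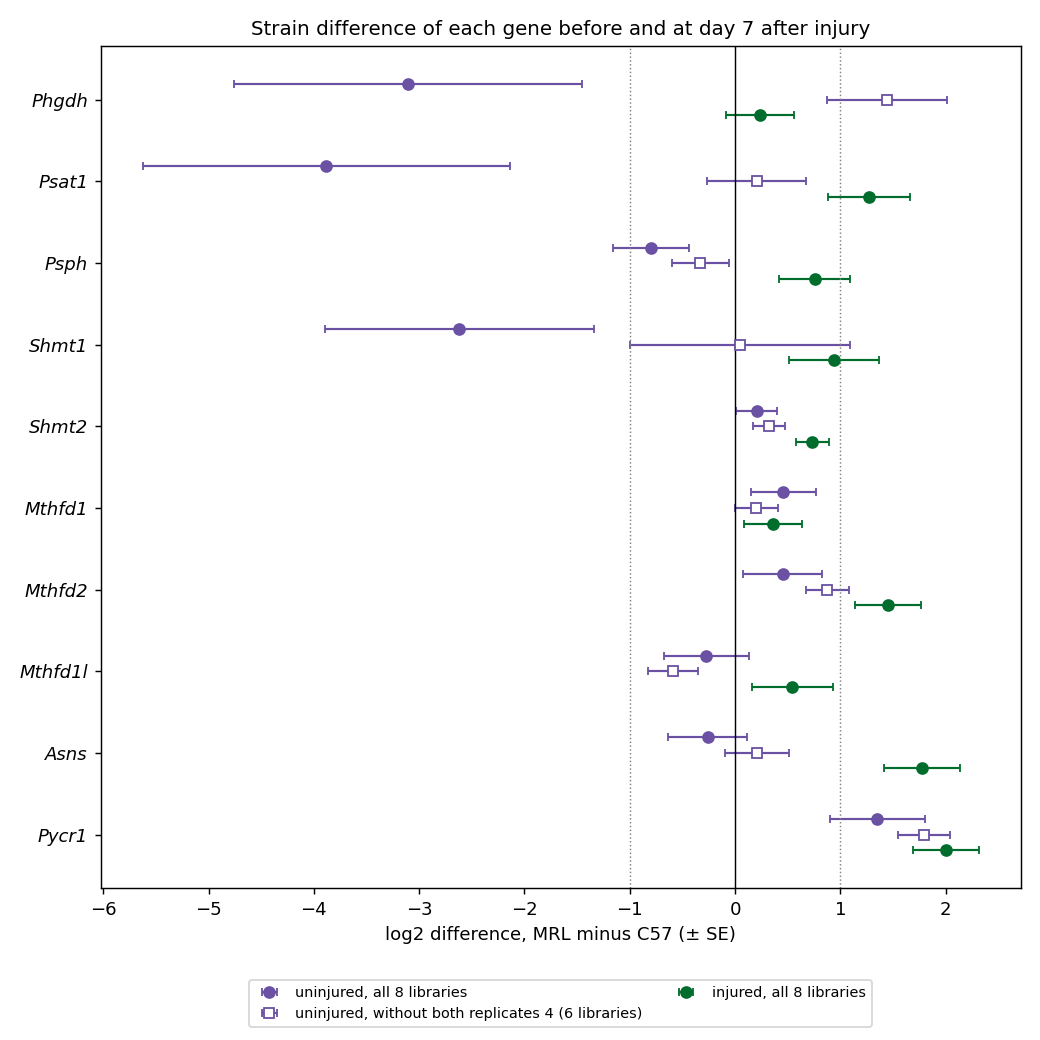
Fitted log2 difference (MRL minus C57, horizontal axis) of the 10 genes in uninjured tendon, with all 8 libraries (filled purple) and without both labelled replicate 4 (open purple), and in injured tendon (green), with bars of 1 SE. Dotted lines mark a 2-fold difference. Pycr1 stands at 1.79 in the 6 remaining uninjured and 2.00 in the 8 injured libraries.

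Levels of different genes were compared as CPM per kb of exon. In MRL at 7 dpi the order was Asns (42.1 ± 13.3, SD, n = 4), Shmt2 (29.4 ± 3.05), Mthfd2 (23.9 ± 6.12), Pycr1 (23.4 ± 5.76), Psat1 (12.2 ± 2.97), Psph (9.50 ± 3.78), Phgdh (7.89 ± 3.58), Mthfd1 (7.87 ± 1.68), Mthfd1l (6.70 ± 1.85) and Shmt1 (2.10 ± 0.54) CPM per kb. Neighbours in this order had overlapping ranges of mean ± SD except Pycr1 against Psat1 and Mthfd1l against Shmt1. In C57 at 7 dpi Shmt2 was first (17.2 ± 1.71 CPM per kb), Asns second (12.1 ± 5.68) and Pycr1 the sixth (5.71 ± 2.495). In the uninjured replicates 1 to 3 Shmt2 was first in both strains, at 22.7 ± 3.92 CPM per kb in C57 and 28.6 ± 1.07 in MRL (SD, n = 3). Psat1 was the ninth of the 10 there, at 1.01 ± 0.13 CPM per kb in C57 and 1.17 ± 0.39 in MRL. With all 4 libraries, Phgdh was first in uninjured C57 (26.6 ± 50.1 CPM per kb, SD, n = 4), Shmt2 second (22.1 ± 3.47) and Psat1 the fourth (12.3 ± 22.5), while in uninjured MRL Shmt2 was first (26.0 ± 5.35) and Psat1 the ninth (0.88 ± 0.67).

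**Figure D4:**
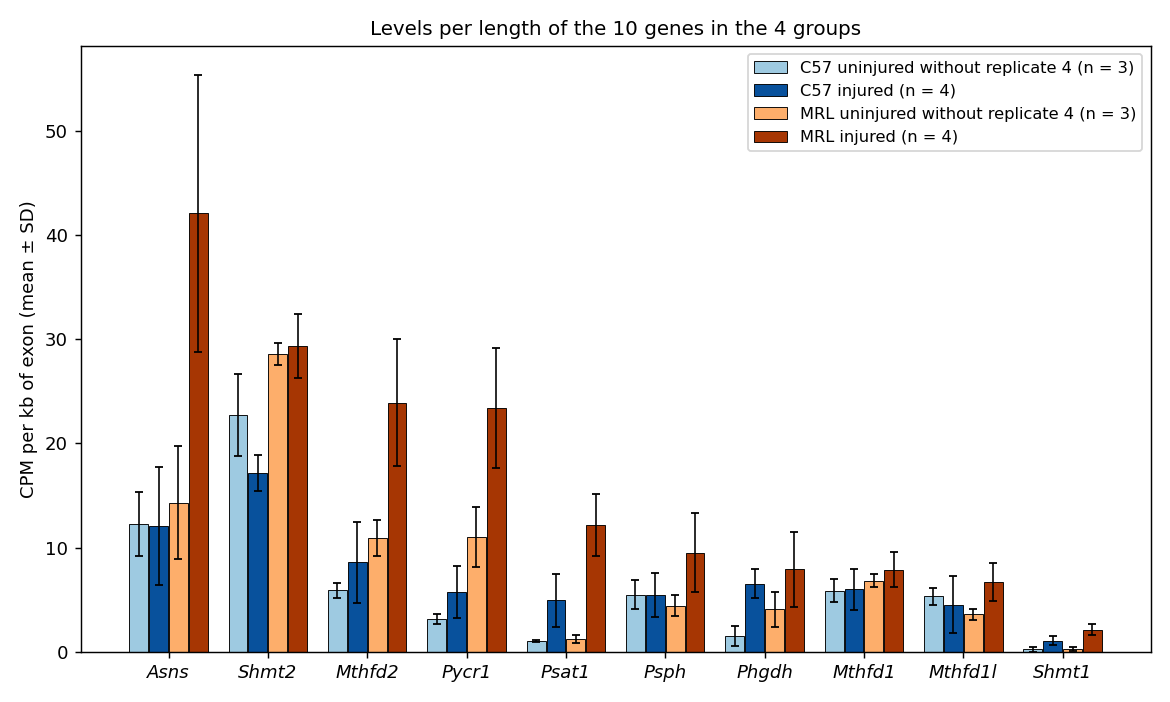
Mean CPM per kb of exon (vertical axis from 0) of the 10 genes, ordered by the injured MRL level, in the 4 groups, with bars of 1 SD. The uninjured groups are drawn without the libraries labelled replicate 4 (n = 3) and the injured groups with all libraries (n = 4). Asns is the highest in injured MRL tendon, at 42.1 CPM per kb, against 12.1 in injured C57.

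The counts of called genes in the lists that follow stand beside 5.25% of all genes called higher in MRL injury with all libraries and 4.68% without the library labelled MRL uninjured replicate 4, and beside 0.908% in C57 with all libraries and 3.5% without the library labelled C57 uninjured replicate 4. Among 9 genes of a list of thymidylate and purine synthesis, 2 were called higher in MRL injury with all libraries and 2 without the library labelled MRL uninjured replicate 4. These were Tk1, a thymidine kinase of the salvage route, which uses no one-carbon unit (log2 fold change 3.97 ± 0.51, edgeR adjusted p = 0.00195), and Tyms, thymidylate synthase, which uses one (1.98 ± 0.36, edgeR adjusted p = 0.00789), at 4.20 ± 0.58 (edgeR adjusted p = 0.00617) and 1.86 ± 0.39 (edgeR adjusted p = 0.0244) without that library. All 9 were fitted above 0 there, with a median of 0.39 against -0.03 over all genes, or 0.40 against -0.0085 without that library. In C57 7 of 9 were fitted above 0, with a median of 0.23 against -0.05 over all genes. Without the library labelled C57 uninjured replicate 4 it was 6 of 9, with a median of 0.16 against -0.0064, and 0 of 9 were called in C57 with or without that library. Of 14 other folate enzymes and transporters tested in MRL, 0 were called, and of 15 in C57, 1 was called, without that library, the folate receptor Folr2 (1.67 ± 0.30, edgeR adjusted p = 0.0147). Of 8 methionine cycle genes tested, 0 were called with all libraries in either strain. Nnmt, which methylates nicotinamide, was called without the library labelled replicate 4 in C57 (1.15 ± 0.25, edgeR adjusted p = 0.0286) and in MRL (2.68 ± 0.70, edgeR adjusted p = 0.04997).

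Of the glycine-using genes, Gatm, which makes the creatine precursor, was called in MRL (1.05 ± 0.27, edgeR adjusted p = 0.0327), the 1 of 11 tested, and 0 of 11 were called without the library labelled replicate 4. Aldh18a1, the enzyme that opens proline synthesis from glutamate, was called in MRL (1.22 ± 0.34, edgeR adjusted p = 0.0459), the 1 of 15 genes of proline, glutamate and aspartate metabolism, and again 0 were called without that library. Of 12 amino acid transporters tested in MRL, 0 were called with all libraries and 1 without the library labelled replicate 4, the glutamine transporter Slc38a1 (1.58 ± 0.26, edgeR adjusted p = 0.0104). In C57 0 genes of these 3 lists were called in either fit. Gatm had a mean of 77.6 CPM (23.9 to 126) in injured and 19.3 CPM (4.66 to 35.5) in uninjured C57 tendon. In MRL its means were 25.3 CPM (20.2 to 28.1) and 12.3 CPM (7.55 to 16.5). Gatm, Aldh18a1 and Slc38a1 were thus each called in only 1 of the 2 MRL fits, and 1 call in a list of 11 to 15 genes is near the share over all genes.

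The ATF4 pathway list had 1 of 20 genes called in MRL with all libraries, a share near the 5.25% of all genes, which was Vldlr, a lipoprotein receptor (1.56 ± 0.44, edgeR adjusted p = 0.0468), and 1 without the library labelled replicate 4, Nupr1, a stress-induced regulator (1.00 ± 0.18, edgeR adjusted p = 0.0136). In C57 0 of 19 were called in either fit. Vldlr was nevertheless at 22.6 to 237 CPM in injured and 4.90 to 7.53 CPM in uninjured C57 tendon, without overlap. In MRL it was at 18.0 to 51.1 and 4.40 to 16.2 CPM. Atf4 itself stood between 131 and 174 CPM in injured MRL and between 116 and 153 CPM in injured C57 tendon. Its log2 fold change was 0.13 ± 0.19 in MRL (edgeR adjusted p = 0.693) and -0.09 ± 0.18 in C57 (edgeR adjusted p = 0.862), or 0.32 ± 0.15 (edgeR adjusted p = 0.226) and -0.07 ± 0.17 (edgeR adjusted p = 0.856) without the uninjured library labelled replicate 4 of each strain. As ATF4 is regulated to a large part in translation its mRNA does not measure its activity. The 20 cytosolic aminoacyl-tRNA synthetases, also known ATF4 targets in part, had 0 called in both strains and both fits. In MRL 19 of them were fitted above 0, with a median log2 fold change of 0.46 (19 with a median of 0.42 without the library labelled MRL uninjured replicate 4), and in C57 11 were, with a median of 0.05, or 16 with a median of 0.24 without the library labelled C57 uninjured replicate 4. Over all genes these medians were -0.03 in MRL, -0.05 in C57 and -0.0064 in the latter.

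Myc stood between 50.6 and 76.7 CPM in injured MRL and between 37.9 and 46.0 CPM in injured C57 tendon. It was 0.53 ± 0.17 higher in injured MRL on the log2 scale, which did not pass the test (edgeR adjusted p = 0.120). Its log2 fold change in MRL was 0.63 ± 0.30 (edgeR adjusted p = 0.1904) with all libraries and 1.04 ± 0.20 (edgeR adjusted p = 0.0166) without the library labelled replicate 4. In C57 it was -0.21 ± 0.44 (edgeR adjusted p = 0.877), and 0.40 ± 0.28 (edgeR adjusted p = 0.473) without the library labelled C57 uninjured replicate 4. Mxd3, which pairs with Max and opposes Myc, was the other gene of its list that was called, in MRL (5.20 ± 0.93, edgeR adjusted p = 0.00758, and 4.89 ± 0.98, edgeR adjusted p = 0.0217, without the library labelled MRL uninjured replicate 4) and, without the library labelled C57 uninjured replicate 4, in C57 (3.86 ± 0.81, edgeR adjusted p = 0.0262).

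Markers of dividing cells rose with injury in MRL tendon, where 4 of the 9 genes other than Psat1 were called. In C57 they rose without the library labelled C57 uninjured replicate 4, where 2 of the 10 genes were called. The summed CPM of 12 proliferation genes (Mki67, Top2a, Cdk1 and others) was 429 to 1508 in injured MRL, 153 to 653 in injured C57, and 51.3 to 83.7 in the uninjured libraries other than the one labelled C57 uninjured replicate 4, which had 387. Of the 12, 11 were called higher with injury in MRL in both fits, against 5.25% and 4.68% of all genes. In C57 0 were called with all libraries and 9 without that library, against 0.908% and 3.5% of all genes. Macrophage and leukocyte markers summed to 3348 to 5968 CPM in injured MRL and 3793 to 7129 in injured C57, against 616 to 1387 in uninjured libraries. Schwann cell markers summed to 578 to 1029 CPM in injured and 1234 to 1419 in uninjured MRL, and adipocyte markers to 114 to 312 and 6.96 to 108 CPM, without overlap in either list. Of the adipocyte sums, Lpl alone made up 93.9 to 140 CPM in injured and 2.72 to 20.8 CPM in uninjured MRL. In MRL injured BI-270, 7 of the 8 adipocyte markers had 0 counts. Without the library labelled MRL uninjured replicate 4, only 2 of the 7 adipocyte markers tested were fitted above 0 in MRL injury (median log2 fold change -0.011). In C57 the Schwann cell sums overlapped (961 to 2124 CPM injured, 471 to 1639 uninjured) and the adipocyte sums did not (221 to 436 and 25.5 to 145 CPM). Of the Schwann cell markers tested, 6 of 6 were fitted above 0 in C57 (median log2 fold change 1.70), with 0 called. Without the library labelled C57 uninjured replicate 4 it was 6 of 7 (median 1.42), and in MRL 1 of 5 (median -0.58). Tendon markers in C57 summed to 37485 to 71576 CPM injured and 43867 to 90035 uninjured, or 79707 to 90035 without the library labelled C57 uninjured replicate 4, where the groups no longer overlapped. In MRL they overlapped, at 73788 to 122466 and 90253 to 115670 CPM. Endothelium markers summed to 116 to 259 CPM injured and 16.1 to 126 uninjured in C57 (45.1 to 126 without that library), and to 4.62 to 33.0 and 17.5 to 83.6 CPM in MRL, with overlap in both strains. Of the 8 endothelium markers, 8 were fitted above 0 in C57 (median log2 fold change 1.73), with 0 called, and 4 in MRL (median -0.0018). Without the library labelled C57 uninjured replicate 4, 8 were above 0 in C57 (median 1.47) and 1 was called. The part of these cell types in the values of the 10 genes was not tested.

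Genes whose pattern was most like that of Psat1 were ranked by Pearson's r of log2 CPM over libraries, as a description in which libraries share group and depth. Over 16 libraries and 15947 genes these were Diaph3 (r = 0.91), a formin of cell division, Mms22l (0.90), a DNA repair factor, Ppp1r14b (0.90), Cnn2 (0.89) and Memo1 (0.88). Without both libraries labelled replicate 4 they were Gdf3 (0.98), at 0 CPM in uninjured and at most 4.84 CPM in injured libraries, Tubb6 (0.97), a tubulin, Gmnn (0.96), a replication licensing inhibitor, Gsg2 (0.96), a mitotic histone kinase, and Cenpm (0.96), a centromere protein. Within the set, r with Psat1 over 16 and these 14 libraries was 0.85 and 0.91 for Shmt1, 0.78 and 0.70 for Phgdh, 0.71 and 0.70 for Psph, 0.67 and 0.75 for Mthfd2, 0.55 and 0.65 for Asns and 0.54 and 0.68 for Pycr1. It was 0.20 and 0.14 for Shmt2, -0.01 and 0.40 for Mthfd1l, and -0.25 and 0.29 for Mthfd1.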

How the data were processed

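Per the methods and the submitters' processing notes, the authors trimmed single-end reads with Trimmomatic 0.36, mapped them with STAR 2.5.2b to GRCm38.p5 and listed Subread 1.5.0p3 with featureCounts. They deposited whole-number counts per gene symbol, without normalization or filter. Which annotation was counted, and whether by strand, is not given in the sources used here, and labels and methods differ on the library kit, the methods naming pre-amplification.

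From the counts, CPM were computed on TMM library sizes over 16 libraries. Each comparison was fitted on its own groups in edgeR 4.0.16 (R 4.3.3): expression filter, TMM and robust quasi-likelihood test, with Benjamini-Hochberg adjustment over all genes tested. Calls needed an adjusted p under 0.05 with a change over 2-fold either way, or for the interaction the adjusted p alone. An SE is the log2 fold change divided by the root of its F. Groups come from the labels, and the methods give separate animals. DESeq2 1.42.0, other scalings and filters, and fits with libraries left out were alternatives, and the scripts were tested on simulated data. Exon lengths and positions came from GENCODE M21 (GRCm38).

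The 10 genes, the gene lists and the tests were chosen with earlier results of these data known. Named were all 10 genes, from each other list the genes called with injury (at most 6 per list and strain, except in marker lists), Atf4 and Myc, and the 5 genes most like Psat1. The fits without both libraries whose strain genes went against their labels were added after the data were seen.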

Additional observations from a re-analysis of the deposited data

Results flagged for a closer look

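Within groups of 4 libraries, the highest or lowest library was compared with the rest by Dixon's gap test, which by chance marks about 1 in 20 groups. Of the 40 groups of the 10 genes, 4 held a library set apart. In uninjured C57, the library labelled replicate 4 had 253 CPM of Phgdh (next highest 6.22 CPM), 196 CPM of Psat1 (next 4.90 CPM) and 17.7 CPM of Shmt1 (next 2.01 CPM). In injured MRL, BI-275 had 65.4 CPM of Psph (next 35.9 CPM). Of these, the 3 values of uninjured C57 come from 1 library, whose strain genes also went against its label.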

How the results depend on the processing

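In C57 injury 0 of 10 genes were called with all libraries, 2 without the library labelled C57 uninjured replicate 4 alone, and 2 without the libraries that stand apart (C57 uninjured replicate 4, MRL uninjured replicate 4 and C57 injured BI-181), a fit in which the C57 log2 fold changes were 2.17 for Phgdh, 2.29 for Psat1, 1.86 for Shmt1, -0.043 for Mthfd1 and 0.22 for Asns, against signs opposite with all libraries. Of these, Asns stayed negative (-0.07) without the library labelled C57 uninjured replicate 4 alone. In that setting 1 gene was called between uninjured strains, where Phgdh (1.44), Psat1 (0.20, from -3.88, with no test), Shmt1 (0.047) and Asns (0.21) changed sign, and the interaction changed sign for Phgdh (-1.22) and Mthfd1 (0.26). Without only both libraries labelled replicate 4, added after the data were seen, the interaction was -1.19 for Phgdh and 0.17 for Mthfd1. DESeq2 called 1 gene (Asns) in the interaction.

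With 1 library left out at a time, genes called ran from 0 to 2 in C57 injury, from 2 to 4 in MRL injury and from 1 to 3 between injured strains. Signs changed in C57 injury for Phgdh (-2.50 to 2.10), Psat1 (-1.77 to 2.26), Shmt1 (-0.79 to 2.04), Mthfd1 (-0.00055 to 0.46) and Mthfd1l (-0.43 to 0.28), between uninjured strains for Phgdh (-3.50 to 1.14) and Asns (-0.43 to 0.15), between injured strains for Phgdh (-0.0605 to 0.45), and in the interaction for Phgdh (-0.88 to 3.73) and Mthfd1 (-0.28 to 0.15). The cause was not tested.

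Uninjured replicate numbers are those of different animals, and same-numbered libraries had correlations of deviations between -0.24 and -0.03, so the numbers do not pair them. With the replicate block 0 genes were called between uninjured strains, as without it. The log2 difference of Phgdh changed sign, from -3.10 without the block to 0.46 with it.

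Counts over all genes also moved. In C57 injury 155 genes were called, against 756 by DESeq2, 367 in one fit of 16 libraries, 867 without the libraries that stand apart and 10 to 750 with 1 library left out. Between injured strains 502 were called, against 1157 by DESeq2, 227 in one fit of 16 libraries and 231 to 481 with 1 library left out. In MRL injury 1057 were called, against 689 to 1260 with 1 left out. Without a scaling factor, 183 genes were higher and 373 lower between injured strains, against 227 and 275, and the median shifted from -0.06 to -0.20. Low counts limit Shmt1 before injury, and n = 3 or 4 limits all comparisons.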
